A study of Mus musculus with 9 samples.

Results

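The genes of the cytosolic ribosomal proteins were examined in podocytes sorted from diabetic OVE26 mice and from FVB mice without diabetes. Membership was decided by name alone: every gene whose array symbol begins with Rpl or Rps followed by a digit, or with Rplp followed by a digit, was taken, and the ribosomal S6 kinases (Rps6k) were left out. This gave 50 of the 18193 genes measured, each read by its brightest probe set (a group of short probes for 1 transcript) that carries a single gene symbol. The 50 hold 20 large subunit proteins, 20 small subunit proteins, 2 stalk proteins, 6 paralogues (1 of them, Rps4l, a transcribed pseudogene in RefSeq), the pseudogene Rps15a-ps6 and Rps19bp1, which encodes a protein that binds a ribosomal protein and is not part of the ribosome.

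The OVE26 group held 5 arrays from diabetic mice with the genotype label OVE-GFP, and the FVB group held 4 arrays from normal mice labelled as wild type. All 9 samples had the FVB background and an age of 3 to 4 months. OVE26 mice carry a transgene that damages the insulin-producing beta cells and are used as a model of type 1 diabetes. Podocytes are epithelial cells whose interlocking processes cover the capillaries of the glomerulus. Here they were sorted by eGFP fluorescence from trypsin-dispersed glomeruli. The labels do not name the promoter of the eGFP transgene, do not state it in the genotype of the FVB mice, and give neither sex nor batch. The array titles number the mice, OVE26 diabetic mouse 1 to 5 and normal FVB mouse 1 to 4, which points to a separate animal for each array. The p-values rest on the spread between these arrays, which may be technical in part. In sorted bulk samples, fewer cells of a type and less RNA per cell cannot be told apart.

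Ribosomes translate mRNA into protein, and each is built from ribosomal RNA and a full set of small and large subunit proteins, made in nearly equal numbers. The mRNAs of these proteins are among the most abundant in any cell, and most start with a C followed by a run of pyrimidines, the terminal oligopyrimidine (TOP) motif, through which mTORC1 controls their translation. Podocytes are long-lived cells with large processes, and mTORC1 activity, increased in diabetic kidneys, is known to affect their size. The arrays read mRNA abundance and not translation.

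Start sites of 7 genes are shown: Rpl22l1 and Rpl14 had the largest positive and negative difference of the set, Rps27l and Rps18 had the smallest p-values, Rpl27a and Rpl7a carry long runs, and the stalk gene Rplp0 carries none. Each line gives 30 bases before and 20 bases from the start site on, 5′ to 3′ on the gene's strand, from RefSeq on GRCm38.p6, with the longest run of pyrimidines that begins with C in capitals.
Rps27l, chr9:66946056-66946105, plus strand: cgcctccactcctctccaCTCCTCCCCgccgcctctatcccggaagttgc
Rpl27a, chr7:109519165-109519214, plus strand: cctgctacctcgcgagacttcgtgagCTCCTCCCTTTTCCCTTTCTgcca
Rps18, chr17:33955646-33955695, minus strand: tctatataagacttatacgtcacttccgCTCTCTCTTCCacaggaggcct
Rpl7a, chr2:26910777-26910826, plus strand: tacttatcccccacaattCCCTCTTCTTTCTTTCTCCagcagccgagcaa
Rpl22l1, chr3:28805478-28805527, plus strand: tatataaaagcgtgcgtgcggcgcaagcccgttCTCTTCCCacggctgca
Rpl14, chr9:120571487-120571536, plus strand: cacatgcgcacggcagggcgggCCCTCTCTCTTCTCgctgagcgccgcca
Rplp0, chr5:115559437-115559486, plus strand: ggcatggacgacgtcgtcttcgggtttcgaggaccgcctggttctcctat

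A start-site window was available for 43 of the 50 genes. A run of 8 or more C or T that begins with C, searched on the sense strand from 15 bases before to 30 bases after the start, was found in 20 of the 43 (46.5%), against 3472 of all 27025 windows (12.8%). The annotated Rplp0 window above held no such run. In the whole window of 250 bases before and 50 after the start, read on both strands, the ETS-type letters CCGGAAG stood in 20 of the 43 (46.5%), against 9.12% of all windows. The Sp1-type letters GGGCGG stood in 24 (55.8%), against 35.9%. The YY1-type letters AAGATGGC stood in 3 (6.98%), against 2.88%, and TATAAA in 5 (11.6%), against 14.2%. In 0 of the 43 windows did matches of different motifs overlap. These are letter matches and describe the windows only.

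None of the 50 genes passed the test between the groups. With limma's moderated test and Benjamini-Hochberg adjustment over all 18193 genes, 0 were higher and 0 lower in OVE26 podocytes at an adjusted p under 0.05, where 0.473% of all genes were called higher and 0.132% lower. The exact permutation test and an unmoderated linear model called 0 of all 18193 genes and so could not separate the set from the rest. The smallest adjusted p in the set was 0.230. At an unadjusted p under 0.05, 10 of the 50 were higher and 0 lower, against a background of 9.03% of all genes higher and 6.07% lower. Every OVE26 array lay above every FVB array for 8 genes, against a background of 3.64%, and the reverse held for 0, against 2.62%. No gene of the set differed by 2-fold or more, a size that 2.87% of all genes reached.

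The differences were small and mostly above 0. The OVE26 minus FVB difference in log2 intensity was positive for 42 of the 50 genes, against 52.6% of all genes. Its median was 0.16 over the 50 genes (quartiles 0.061 and 0.24, range -0.42 to 0.38), beside a median of 0.013 over all genes. Of the genes with a mean log2 intensity of 10 or more, a level chosen after the data were seen, all 32 differences were above 0, between 0.018 and 0.32, with a median of 0.18. Among the 1181 other genes that bright, 471 were above 0 (39.9%) and the median was -0.051. The 18 members under that level were divided, with 10 above 0 and a median of 0.067. For single genes the median within-group SD was 0.16.

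**Figure D1:**
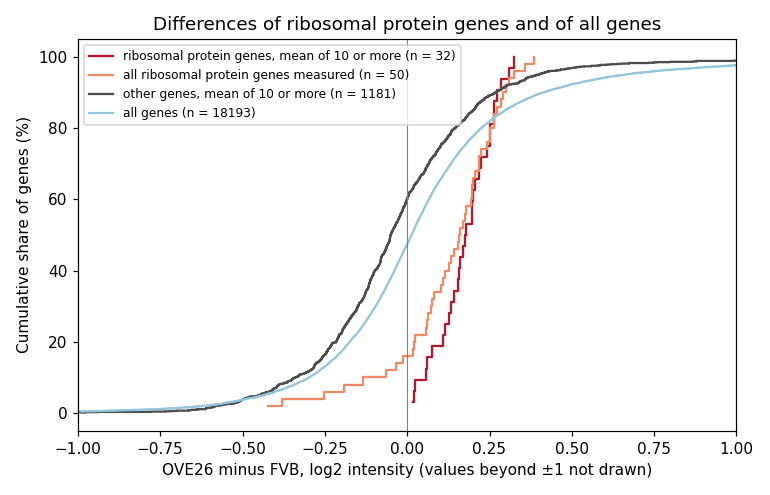
Cumulative share of genes (%) against the OVE26 minus FVB difference in log2 intensity. Curves are drawn for the 32 ribosomal protein genes with a mean of 10 or more and for all 50. The others are for the 1181 other genes that bright and for all 18193 genes. The medians are 0.18, 0.16, -0.051 and 0.013 in that order. The curve of the 50 ribosomal protein genes stays well inside a 2-fold difference.

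**Figure D2:**
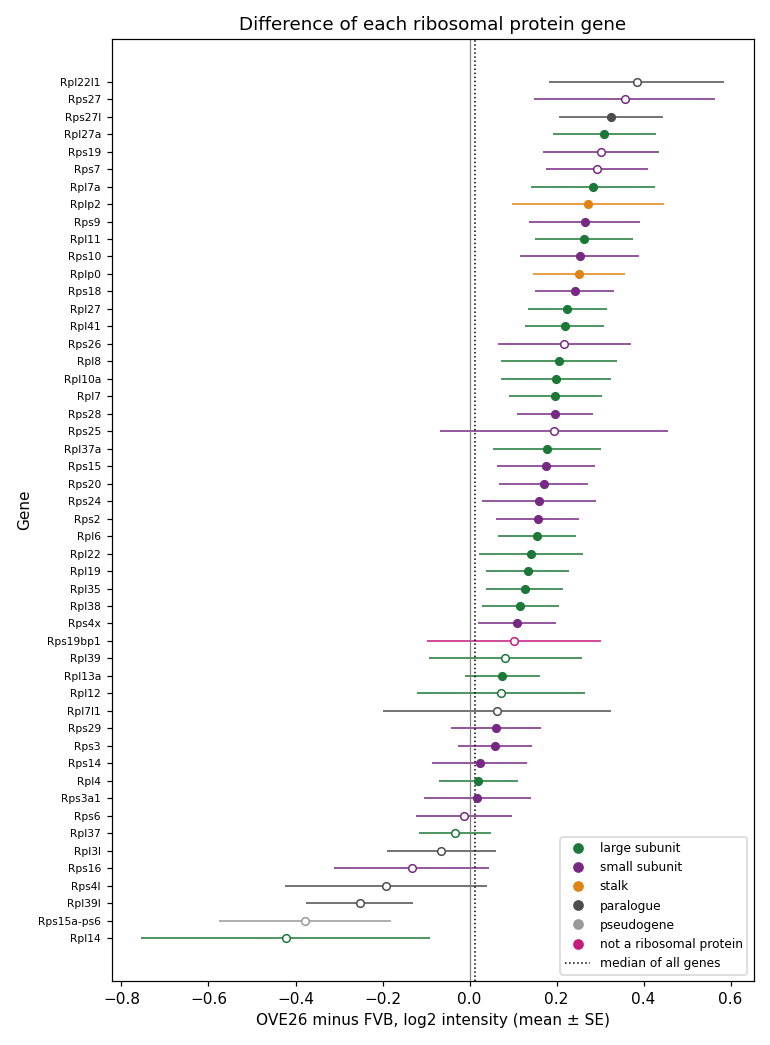
OVE26 minus FVB difference of each of the 50 genes in log2 intensity, with its standard error from limma; colour gives the role, filled points have a mean of 10 or more and open points a lower one, and the dotted line is the median of all genes. All 32 filled points lie above 0, and the 8 points at or below it are all open.

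The arrays moved across the set as a whole. For the 32 bright genes, each gene's value was centred on its mean over the 9 arrays and the median was taken per array. It was -0.021, 0.057, 0.050, 0.18 and 0.083 in OVE26 arrays 1 to 5, against -0.21, -0.082, -0.091 and 0.018 in FVB arrays 1 to 4. The groups overlapped, because FVB array 4 lay above OVE26 array 1. The group means were 0.070 ± 0.074 in OVE26 (SD, n = 5) and -0.091 ± 0.092 in FVB (SD, n = 4), and the same medians over all genes lay between -0.025 and 0.037 in OVE26 and between -0.020 and 0.0090 in FVB.

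The highest and the lowest array of each group were often the same from gene to gene, while other arrays changed places. OVE26 array 2 was the highest OVE26 array for 6 bright genes and the lowest for 5, and FVB array 2 the highest FVB array for 6 and the lowest for 3. OVE26 array 4 was above the gene's own mean for 32 of the 32 bright genes and was the highest OVE26 array for 18. OVE26 array 1 was the lowest OVE26 array for 23. In the FVB group, array 4 was the highest for 25 and array 1 the lowest for 21, and array 1 stood above a gene's mean for only 1. Without OVE26 array 4 and FVB array 1, left out together after the data were seen, the median difference of the 50 genes was 0.090, and 28 of the 32 bright genes were above 0.

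**Figure D3:**
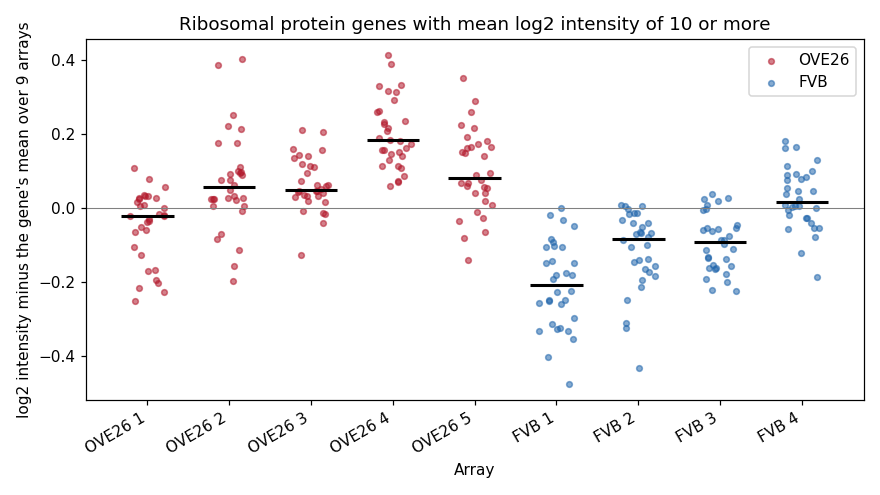
Log2 intensity minus the gene's mean over 9 arrays for the 32 genes with a mean of 10 or more, 1 point per gene, by array; black lines are the array medians. The medians of the OVE26 arrays run from -0.021 to 0.18 and those of the FVB arrays from -0.21 to 0.018.

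**Figure D4:**
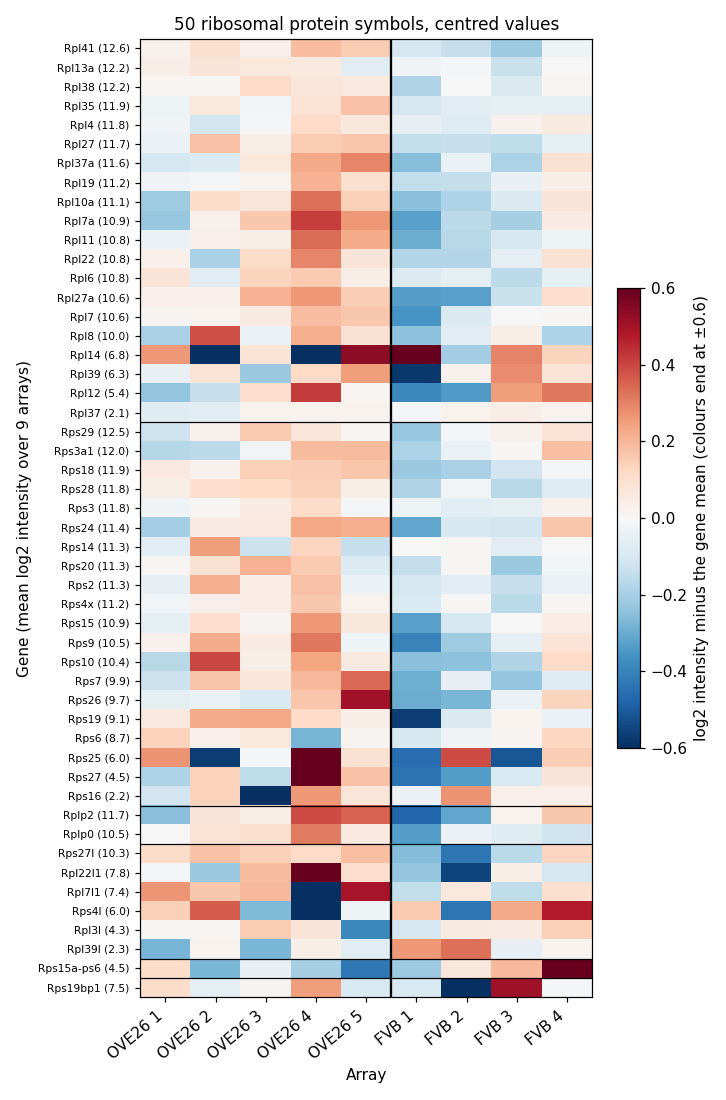
Log2 intensity minus the gene mean for all 50 genes (rows, with the mean over 9 arrays in brackets) in the 5 OVE26 and 4 FVB arrays. The column of OVE26 array 4 is above the mean for 32 of the 32 bright genes and that of FVB array 1 for 1 of them.

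Of the 20 large subunit genes, 18 had a positive difference, with a median of 0.15. In 4 the groups did not overlap and 4 had an unadjusted p under 0.05, all higher, against 3.64% and 9.03% of all genes. Rpl27a had the largest difference of the 20. It read 10.67, 10.67, 10.85, 10.90 and 10.79 in the OVE26 arrays, against 10.30, 10.31, 10.50 and 10.74 in the FVB arrays. FVB array 4 alone reached into the OVE26 range. The difference was 0.31 (SE 0.12), a ratio of 1.24, with a limma adjusted p of 0.252. Rpl7a, whose start site carries the long run printed above, read 10.69, 10.94, 11.08, 11.33 and 11.18 in OVE26, against 10.59, 10.76, 10.72 and 10.97 in FVB. Its groups overlapped, since OVE26 array 1 lay below FVB arrays 2, 3 and 4 and OVE26 array 2 below FVB array 4. The difference was 0.28 (SE 0.14, limma adjusted p = 0.391).

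Rpl11, which also binds the ubiquitin ligase MDM2 when ribosome assembly is disturbed, read 10.79, 10.85, 10.86, 11.16 and 11.05 in OVE26 arrays, against 10.53, 10.66, 10.73 and 10.80 in FVB arrays. Only OVE26 array 1 and FVB array 4 crossed, and only just. The difference was 0.26 (SE 0.11), a ratio of 1.20, with a limma adjusted p of 0.306. Its partner in that role, Rpl5, was listed only on probe sets that carry several symbols and is not a member here.

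In 4 large subunit genes no FVB array reached the OVE26 range: Rpl7, Rpl27, Rpl35 and Rpl41. Rpl27 and Rpl35 are named because of this, after their values were seen. Rpl41, which encodes a very short and basic peptide, read 12.58, 12.65, 12.58, 12.74 and 12.71 in OVE26, against 12.45, 12.42, 12.33 and 12.53 in FVB. The lowest OVE26 array lay just above FVB array 4, and the difference was 0.22 (SE 0.090, limma adjusted p = 0.292). Rpl27 read 11.63, 11.84, 11.71, 11.82 and 11.83 in OVE26, against 11.52, 11.52, 11.51 and 11.61 in FVB. Here too FVB array 4 was the nearest to OVE26, and the difference was 0.22 (SE 0.091, limma adjusted p = 0.284).

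Rpl7 read 10.61, 10.62, 10.65, 10.78 and 10.76 in OVE26, against 10.24, 10.51, 10.59 and 10.60 in FVB. The gap between the groups was narrow and FVB array 1 was the low one. The difference was 0.20 (SE 0.11, limma adjusted p = 0.429), and without FVB array 1 it was 0.12. Rpl35 read 11.87, 11.96, 11.89, 11.99 and 12.08 in OVE26, against 11.80, 11.83, 11.84 and 11.85 in FVB. Its FVB arrays were the tightest of these genes and its difference the smallest, 0.13 (SE 0.088, limma adjusted p = 0.554).

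Rpl13a, Rpl38 and Rpl22, also bright, had overlapping groups and differences under the large subunit median of 0.15. Rpl13a, which in human myeloid cells also represses inflammatory mRNAs outside the ribosome, read 12.22, 12.26, 12.24, 12.24 and 12.12 in OVE26, against 12.16, 12.17, 12.05 and 12.18 in FVB. The OVE26 group held both the highest arrays and 1 array below 3 of the FVB arrays. Its difference was 0.075 (SE 0.087, limma adjusted p = 0.758). Rpl38, which mouse embryos need for translation of Hox mRNAs, averaged 12.21 ± 0.045 in OVE26 (SD, n = 5) and 12.09 ± 0.088 in FVB (SD, n = 4), a difference of 0.12 (limma adjusted p = 0.601). Rpl22, an RNA-binding protein of the large subunit, read 10.82, 10.60, 10.91, 11.09 and 10.87 in OVE26, against 10.62, 10.62, 10.74 and 10.88 in FVB. OVE26 array 2 was the lowest of all 9 arrays, and the difference was 0.14 (SE 0.12, limma adjusted p = 0.642). Other single-symbol probe sets of Rpl22 gave 0.29 at a mean level of 10.25 and -0.26 at 6.62, so that they did not share a sign (limma adjusted p = 0.318 and 0.507 over all probe sets).

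Rpl14 and Rpl37 were the 2 large subunit genes with a negative difference. Rpl14 read 7.11, 6.02, 6.93, 5.85 and 7.38 in OVE26, against 7.56, 6.63, 7.14 and 6.98 in FVB. OVE26 arrays 2 and 4 were low and the other 3 lay within the FVB range. The difference was -0.42 (SE 0.33, limma adjusted p = 0.616), with a 95% interval from -1.16 to 0.32 that is not adjusted for the number of genes. It was -0.22 without OVE26 array 4, and -0.26 without OVE26 array 2 or without FVB array 1. Rpl37 was read at background, averaging 2.10 ± 0.051 in OVE26 and 2.13 ± 0.020 in FVB. Both Rpl14 and Rpl37 are also listed on probe sets with several symbols, which did not enter these values.

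Of the 20 small subunit genes, 18 had a positive difference, with a median of 0.17. In 3 the groups did not overlap and 4 had an unadjusted p under 0.05, all higher, against 3.64% and 9.03% of all genes. Rps18, at the head of the small subunit, had the smallest p of the 20. It read 11.93, 11.90, 12.02, 12.02 and 12.04 in OVE26 arrays, against 11.65, 11.68, 11.76 and 11.87 in FVB arrays. Every OVE26 array was above every FVB array. The difference was 0.24 (SE 0.091, 95% interval 0.04 to 0.45 before adjustment), a ratio of 1.18, with a limma adjusted p of 0.248. It held from 0.21 to 0.28 as each array was left out in turn.

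The probe sets of Rps18 did not share a sign. Other single-symbol probe sets for it gave 0.21 at a mean level of 11.08 and 0.26 at 9.14. A further, dim one gave -0.54 (limma adjusted p = 0.197 over all probe sets). Those at background gave -0.064 at a level of 3.04 and 0.25 at 2.69. The mean of its probe sets gave 0.059 (limma adjusted p = 0.846). Which of these reads the mature Rps18 mRNA was not tested.

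Rps19, the gene most often mutated in human Diamond-Blackfan anaemia, read 9.12, 9.29, 9.30, 9.18 and 9.10 in OVE26, against 8.50, 8.98, 9.08 and 9.03 in FVB. The groups did not overlap, and FVB array 1 was far below the other 3. The difference was 0.30 (SE 0.13), a ratio of 1.23, with a limma adjusted p of 0.324, and without FVB array 1 it was 0.17. Rps28, named after its values were seen, also had groups that did not overlap. It read 11.88, 11.94, 11.96, 11.99 and 11.89 in OVE26, against 11.66, 11.83, 11.68 and 11.77 in FVB, a difference of 0.20 (SE 0.087, limma adjusted p = 0.325).

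Rps7 read 9.76, 10.06, 9.96, 10.09 and 10.23 in OVE26, against 9.60, 9.84, 9.66 and 9.81 in FVB. OVE26 array 1 fell below FVB arrays 2 and 4, and the other 4 OVE26 arrays lay above every FVB array. The difference was 0.29 (SE 0.12, limma adjusted p = 0.276). Rps9 and Rps10, both structural proteins of the small subunit, had differences of 0.26 and 0.25 with overlapping groups (limma adjusted p = 0.366 and 0.430). The other 2 probe sets of Rps9, both dimmer, gave 0.036 and 0.029, and the mean of its probe sets gave 0.11. For Rps10, 4 other probe sets gave from 0.24 to 0.56, and a dim one gave -0.57 (limma adjusted p = 0.346 over all probe sets).

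Rps6, the small subunit protein phosphorylated by the S6 kinases downstream of mTORC1, was level between the groups on the probe set used. It read 8.87, 8.76, 8.79, 8.45 and 8.75 in OVE26, against 8.63, 8.71, 8.75 and 8.85 in FVB. OVE26 array 4, the highest OVE26 array for most bright members, was the lowest of all 9 here. The difference was -0.013 (SE 0.11, limma adjusted p = 0.977, 95% interval -0.26 to 0.23 before adjustment). A dimmer Rps6 probe set, at a mean of 4.22, gave 1.10 (limma adjusted p = 0.351), so the gene's own probe sets did not share a sign.

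Rps3, an RNA-binding protein at the mRNA entry of the small subunit, read 11.82, 11.85, 11.89, 11.95 and 11.83 in OVE26, against 11.81, 11.77, 11.79 and 11.87 in FVB. The ranges overlapped and the difference was 0.058 (SE 0.084, limma adjusted p = 0.815). Rps3a1 read 11.80, 11.81, 11.95, 12.16 and 12.16 in OVE26, against 11.78, 11.93, 11.97 and 12.15 in FVB. Both groups spanned the same range, with a difference of 0.018 (SE 0.12, limma adjusted p = 0.971). Rps29, among the brightest members, differed by 0.061 (limma adjusted p = 0.850), and the X-linked Rps4x by 0.11 (limma adjusted p = 0.636).

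Rps27 and Rps16 were dim on the single-symbol probe sets used. Both are also listed on probe sets with several symbols, which did not enter these values. Rps27 read 4.33, 4.66, 4.37, 5.34 and 4.69 in OVE26, against 4.08, 4.19, 4.43 and 4.60 in FVB, with OVE26 array 4 high. The difference was 0.36 (SE 0.21, limma adjusted p = 0.466), and 0.19 without that array. Rps16 was read at background, averaging 2.15 ± 0.36 in OVE26 (SD, n = 5) and 2.29 ± 0.14 in FVB (SD, n = 4).

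The stalk is the flexible arm of the large subunit that recruits translation factors, with Rplp0 as its base and Rplp1 and Rplp2 as its arms. Rplp0, often used as a reference gene, read 10.54, 10.63, 10.64, 10.86 and 10.60 in OVE26 arrays, against 10.21, 10.51, 10.47 and 10.42 in FVB arrays. The groups did not overlap, with FVB array 1 lowest and OVE26 array 4 highest. The difference was 0.25 (SE 0.11), a ratio of 1.19, with a limma adjusted p of 0.304. Rplp2 read 11.42, 11.75, 11.71, 12.06 and 12.03 in OVE26, against 11.20, 11.36, 11.69 and 11.84 in FVB. Its arrays spread widely in both groups and overlapped, and the difference was 0.27 (SE 0.17, limma adjusted p = 0.519), or 0.16 without FVB array 1. Rplp1 was listed only on probe sets with several symbols.

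**Figure D5:**
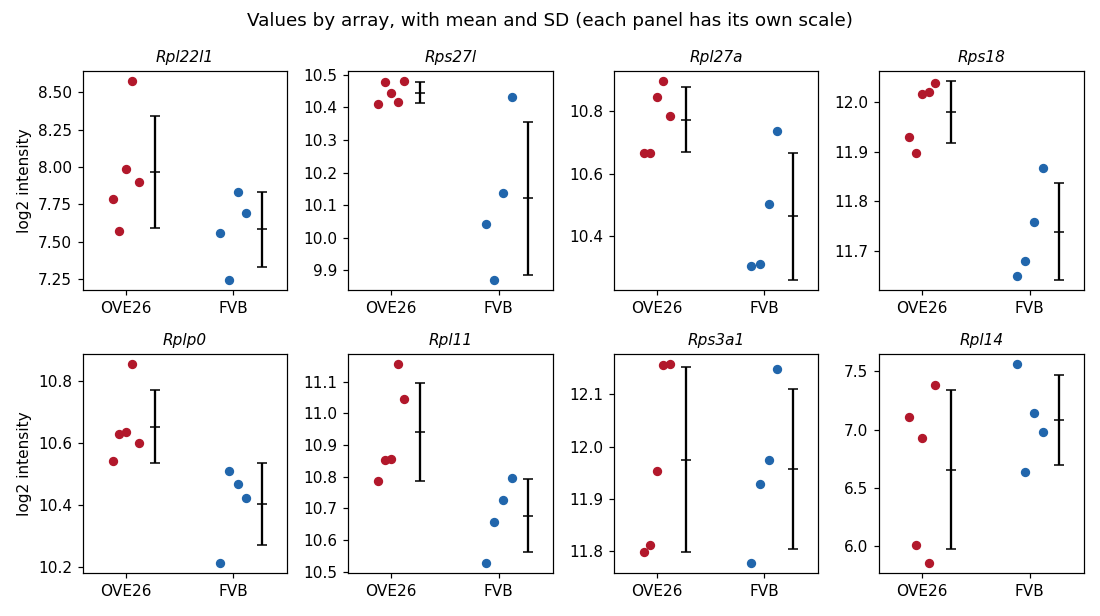
Log2 intensity of 8 genes (Rpl22l1, Rps27l, Rpl27a, Rps18, Rplp0, Rpl11, Rps3a1 and Rpl14) by array in OVE26 (5 points) and FVB (4 points), with the mean and SD beside them and a scale of its own in each panel. Rps18 and Rplp0 do not overlap between groups, Rps27l and Rpl27a overlap only through the highest FVB array, Rps3a1 spans the same range in both, and 2 OVE26 arrays lie below the FVB range for Rpl14.

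The 6 paralogues were split, with 3 above 0 and a median of -0.0012. Rps27l, a close relative of Rps27 that p53 induces, had the smallest p of all 50 genes. It read 10.41, 10.48, 10.44, 10.42 and 10.48 in OVE26, against 10.04, 9.87, 10.14 and 10.43 in FVB. The 5 OVE26 arrays were nearly identical and only FVB array 4 reached them. The difference was 0.32 (SE 0.12, 95% interval 0.06 to 0.59 before adjustment), a ratio of 1.25, with a limma adjusted p of 0.230.

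Rpl22l1, which mouse Rpl22 is known to repress, had the largest positive difference of the 50. It read 7.79, 7.57, 7.99, 8.58 and 7.90 in OVE26, against 7.56, 7.24, 7.83 and 7.70 in FVB. OVE26 array 4 stood high and the other 4 lay near or within the FVB range. The difference was 0.38 (SE 0.20), a ratio of 1.31, with a limma adjusted p of 0.413, and it was 0.23 without OVE26 array 4. Rpl7l1, a relative of Rpl7 found in pre-ribosomes, read 7.68, 7.57, 7.60, 6.43 and 7.90 in OVE26, against 7.26, 7.47, 7.26 and 7.51 in FVB. OVE26 array 4 was the lowest of all 9 arrays and the other 4 OVE26 arrays were at or above the FVB range, and the difference was 0.063 (SE 0.26, limma adjusted p = 0.948).

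The tissue-restricted paralogues gave low values. Rpl3l, the form of striated muscle, averaged 4.31 ± 0.21 in OVE26 (SD, n = 5) and 4.37 ± 0.10 in FVB (SD, n = 4), a difference of -0.065 (limma adjusted p = 0.872). Rpl39l, the form of the testis, was at background, with means of 2.20 ± 0.15 in OVE26 and 2.45 ± 0.18 in FVB. Rps4l differed by -0.19 (limma adjusted p = 0.771). Rpl39 itself averaged 6.29 ± 0.18 in OVE26 and 6.21 ± 0.37 in FVB, a difference of 0.082 (limma adjusted p = 0.887). Rps19bp1 averaged 7.56 ± 0.14 in OVE26 and 7.46 ± 0.47 in FVB, a difference of 0.10 (limma adjusted p = 0.874). The pseudogene Rps15a-ps6, named here after its value was seen, differed by -0.38 (limma adjusted p = 0.411).

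Some members were too dim to read on the probe set used. Of the 50 genes, 44 had a mean at or above the 40th percentile of all genes, 5.03, and Rps16, Rpl37 and Rpl39l were under the array values' 25th percentile, in OVE26 and in FVB alike. Such values cannot be told from background. A low level here belongs to the probe set used and need not be that of the gene. Rps6, Rps16, Rps27, Rpl14, Rpl37 and Rpl39 are also listed on probe sets with several symbols. The members had 105 single-symbol probe sets in all. Of the 55 not used, 50 had a difference above 0, with a median of 0.17, and 6 had the opposite sign to the one used. Another 110 probe sets list a ribosomal protein gene among several symbols, and 33 of the 90 protein-coding genes with such names, Rpl3 and Rpl10 among them, were measured only there. Of these 110 probe sets, 73 had a mean of 10 or more. A difference above 0 was found for 88 of the 110, with a median of 0.15 beside -0.0061 over all 45037 probe sets. Limma called 0 of them higher and 0 lower. At an unadjusted p under 0.05, 7 were higher and 2 lower, where 9.03% and 6.07% of all genes were. Every OVE26 array lay above every FVB array for 4 of the 110, where 3.64% of all genes had this. These counts did not exceed the shares over all genes. Ribosomal protein genes have many processed pseudogenes and close copies, so that a probe set may read more than 1 of them. Of the 50 probe sets used, 1 for each gene, 11 carry the suffix that marks probes shared with other sequences (_x_at) and 2 the one for transcript families (_s_at), and leaving both out gave a median difference of 0.17 over 45 genes.

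The genes with a pyrimidine run near the start site and those without it both had a median above 0. A run counted here may end before the start, as in Rps27l, or begin after it, as in Rpl11. The split therefore does not sort mRNAs with a TOP motif from those without. The median difference was 0.25 for the 20 genes with a run, of which 18 were above 0, and 0.14 for the 23 without one, of which 19 were above 0. Among bright genes it was 0.25 with a run (13 genes) and 0.17 without (14 genes). The difference between these medians was not tested. Rps27l, with the smallest p of the set, and Rpl14, with the largest negative difference, both hold a run in the windows printed above. Rplp0, with groups that did not overlap, holds none.

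Other genes of the translation machinery were read beside the set, with lists chosen when results of these data were known. Of the 5 ribosomal proteins or ribosome-bound factors with other names, 2 were measured with a single symbol. In both, every OVE26 array lay above every FVB array, against a background of 3.64% of all genes. Fau, which encodes a small subunit protein fused to a ubiquitin-like domain, averaged 10.44 ± 0.24 in OVE26 (SD, n = 5) and 10.08 ± 0.14 in FVB (SD, n = 4), a difference of 0.36 (SE 0.14, limma adjusted p = 0.266). Rpsa averaged 11.67 ± 0.11 in OVE26 and 11.46 ± 0.078 in FVB, a difference of 0.21 (SE 0.097, limma adjusted p = 0.342). Neither passed the test.

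No list of translation genes held a gene called at an adjusted p under 0.05, and their medians lay on either side of 0. Of 8 measured elongation genes, 5 were above 0, with a median of 0.043. The elongation factors Eef1a1 and Eef2, whose mRNAs also carry TOP motifs, differed by 0.043 and -0.0018. Eef2k, the kinase that inhibits Eef2, averaged 9.85 ± 0.25 in OVE26 and 9.22 ± 0.080 in FVB, and every OVE26 array was above every FVB array. Its difference was 0.63 (SE 0.14, limma adjusted p = 0.0794), but 0.16 (limma adjusted p = 0.720) where _x_at and _s_at probe sets were left out and another probe set read the gene. Of 30 initiation factors and other TOP mRNA products, 15 were above 0, with a median of -0.014. At an unadjusted p under 0.05, 4 of the 30 were lower and 0 higher, against 6.07% and 9.03% of all genes. Eif3m, a subunit of initiation factor eIF3, averaged 10.49 ± 0.16 in OVE26 and 10.92 ± 0.15 in FVB, a difference of -0.43 (SE 0.12, limma adjusted p = 0.127).

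The genes that build ribosomes lay mostly below 0. Of 59 ribosome biogenesis factors, 16 were above 0, with a median of -0.088, and of 15 RNA polymerase I genes, 3 were above 0, with a median of -0.15. At an unadjusted p under 0.05, 2 of the 59 were higher and 4 lower, against 9.03% and 6.07% of all genes. Nop58, a core protein of the snoRNPs that methylate ribosomal RNA, averaged 8.56 ± 0.049 in OVE26 and 9.11 ± 0.24 in FVB, with groups that did not overlap and a difference of -0.55 (SE 0.12, limma adjusted p = 0.0803). Pno1, a small subunit assembly factor, went the other way, with a difference of 0.53 (limma adjusted p = 0.137). Polr1c, a subunit shared by RNA polymerases I and III, differed by 0.38 (limma adjusted p = 0.108) and Twistnb, a subunit of polymerase I, by -0.33 (limma adjusted p = 0.236).

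Of 26 measured genes of mTORC1 and S6 kinase signalling, 12 were above 0, with a median of -0.018. Myc, a transcription factor that drives ribosome biogenesis genes, averaged 5.93 ± 0.92 in OVE26 and 4.30 ± 0.43 in FVB, with groups that did not overlap and a difference of 1.63 (SE 0.43, limma adjusted p = 0.117). Of 76 mitochondrial ribosomal proteins, 49 were above 0, with a median of 0.086. At an unadjusted p under 0.05, 9 of the 76 were higher and 2 lower, against 9.03% and 6.07% of all genes. Mrpl12, the first by p, differed by 0.61 (limma adjusted p = 0.112).

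Markers of the sorted cells and of other kidney cells also differed between the groups. Over all genes, 52.6% were above 0, 0.473% were called higher and 0.132% lower. All 26 measured podocyte markers were above the 40th percentile of all genes, with a mean level from 10.12 to 10.56 in OVE26 and from 10.46 to 10.75 in FVB. Of them 3 were above 0, with a median difference of -0.22, and 1 was called lower. Loop, distal nephron and collecting duct markers had 25 of 26 above 0 and 3 called higher, and their mean level ran from 7.11 to 8.36 in OVE26 and from 5.58 to 6.99 in FVB. Macrophage markers had 24 of 27 above 0, 0 called, and mean levels from 4.86 to 5.96 in OVE26 and from 4.61 to 4.84 in FVB, with 4 of the 27 at background in both groups. Parietal epithelial markers had 12 of 12 above 0 and 3 called higher. Proximal tubule markers had 12 of 23 above 0, glomerular endothelial markers 7 of 20 and mesangial markers 5 of 14, with 0 called in each of these lists. The mean parietal level was 7.10, 7.16, 7.60, 7.81 and 7.38 in OVE26 arrays 1 to 5, against 6.11, 6.84, 5.93 and 6.14 in FVB arrays 1 to 4. OVE26 array 4, with the highest median of the bright ribosomal protein genes, also had the highest parietal level, and it had the lowest podocyte level, 10.12. FVB array 1, with the lowest median of those genes, had the second lowest parietal level. FVB array 2 had the highest FVB parietal level, 6.84, but a median of -0.082. FVB array 4 had the highest FVB median, 0.018, with a parietal level of 6.14. The highest distal level was in OVE26 array 2. The part of the parietal markers in the ribosomal protein differences was not tested.

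With each array's podocyte marker level as a covariate, the median difference of the 50 genes was 0.063, beside 0.045 over all genes, and 24 of the 32 bright genes were above 0. With the macrophage level it was 0.14, beside 0.069 over all genes, and 27 of the 32 were above 0, and with the distal level it was 0.17. These levels come from the same arrays and differ between the groups, so that group and cell content cannot be told apart in full. Xist was above the mean of the Y-linked genes in 3 of the 5 OVE26 arrays and 1 of the 4 FVB arrays. With each array's Xist value minus that mean as a covariate, the median difference of the 50 genes was 0.16.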

How the data were processed

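The 9 arrays measured total RNA of sorted podocytes, amplified and labelled with biotin (NuGEN), per the labels' protocols. The authors deposited 1 table of linear intensity values; RMA and Partek are named in the submitters' processing notes, with versions not given in the sources used here. Background correction and normalization made by the authors were kept, and log2 was taken of the deposited intensity. Of 45101 probe sets, 64 controls were left out, and 34945 with a single symbol (932 had several, 9160 none) gave 18193 genes, each by the probe set with the highest mean over all arrays. No low-signal filter was applied before the test.

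OVE26 and FVB arrays, grouped by their titles and genotype labels, were compared by a moderated linear model without covariates over all genes (limma 3.58.1, run in R 4.3.3), with Benjamini-Hochberg adjustment and a threshold of 0.05. The code was tested on simulated data. The number of arrays limits the precision. Array medians lay between 5.07 and 5.15 and correlations between arrays between 0.960 and 0.989. The smallest exact permutation p that 5 against 4 arrays allow is 0.00794.

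The members and all lists were chosen with earlier results of these data known. Genes were named by a rule: members past the threshold, the 10 largest differences in each direction at or above the 40th percentile, the 5 brightest and 5 dimmest, a list of genes with known special roles, and up to 4 genes with the smallest p of each other list. Intensities of different probe sets were not compared as amounts. Same-numbered arrays of the groups did not deviate together (correlations of 0.13, 0.042, -0.21 and 0.0076), so that the numbers were not used as pairs. Start-site windows and gene symbols were matched to RefSeq by gene identifier, for 43 and 50 of the 50 genes. The alternatives were quantile normalization, other probe set rules, a filter on dim genes, array weights, covariates, and leaving out arrays.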

Additional observations from a re-analysis of the deposited data

Results flagged for a closer look

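In 5 of 74 groups of arrays tested, 1 array stood apart from the others of its group by Dixon's criterion, and chance alone gives about 1 in 20. For Rps6, OVE26 array 4 was the lowest of its group at a log2 intensity of 8.446, with the other 4 between 8.745 and 8.866. For Rpl7l1, the same array was lowest at 6.433, with the others between 7.571 and 7.904. For Rpl3l, OVE26 array 5 was lowest at 3.95, with the others between 4.342 and 4.492. For Rpl13a, FVB array 3 was lowest at 12.05, with the other 3 between 12.16 and 12.18. For Rpl27, FVB array 4 was highest at 11.61, with the others between 11.51 and 11.52. The cause was not tested in any of the 5.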

How the results depend on the processing

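No ribosomal protein gene was called in either direction under any alternative run. The median difference of the 50 genes, 0.158, ran from 0.112 without FVB array 1 to 0.194 without FVB array 4 as each array was left out, and that of the 32 bright genes, 0.176, from 0.139 to 0.215, with 29 to 32 of the 32 above 0. With the replicate block on arrays 1 to 4 of each group, whose numbers did not pair the samples, the median was 0.137 and 31 of the 32 were above 0; this fit drops OVE26 array 5, and leaving out that array alone gave the same medians and count. The podocyte marker covariate moved both medians, to 0.0635 over all 50 and 0.0631 over the bright genes; the cause was not tested. Over all genes, where the main test called 110, array weights gave 396 calls, a trend with a robust prior 179, a filter on dim genes 166, the sex covariate 41, the replicate block 19, the podocyte covariate 2, the macrophage covariate 1, and the distal covariate, the unmoderated model and the exact permutation test 0 each. Leaving out 1 array gave from 8 calls (without FVB array 3) to 367 (without FVB array 2), so that 0 calls among the 50 says little where few genes were called at all.

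Of 1313 values of 49 named genes, 1268 kept direction and side of the threshold, 7 newly passed it and 38 changed sign. Averaging probe sets gave Rps6 0.54, and array weights gave it 0.0048. Quantile normalization gave Rps3a1 -0.00058. The replicate block, without OVE26 array 5, gave Rps3a1 -0.028, Rpl3l 0.024 and Rpl7l1 -0.054, the same as without that array alone. The distal covariate gave Rpl14 0.26, Rpl13a -0.0071, Rpl7l1 -0.13 and Rps6ka6 -0.26. The macrophage covariate gave Rps4l 0.32, Rps29 -0.053, Rps3a1 -0.15, Rps16 0.25 and Rpl22 -0.085. The podocyte covariate gave Rpl7a -0.0026, Rpl14 0.099, Rps4l 0.32, Rps6 0.12, Rps29 -0.054, Rps3a1 -0.15 and Rps4x -0.0061, and the sex covariate gave Rpl7l1 -0.092. Leaving out 1 array at a time spanned 0 for Rps16 (-0.21 to 0.015), Rps6 (-0.050 to 0.055), Rps3a1 (-0.042 to 0.082), Rpl3l (-0.11 to 0.024), Rpl7l1 (-0.054 to 0.31), Rps29 (-0.0036 to 0.099), Rpl39 (-0.095 to 0.19) and Rps19bp1 (-0.092 to 0.29). Without OVE26 array 4 and FVB array 1 together, added after the data were seen, Rps6 was 0.022, Rps29 -0.014, Rps3a1 -0.087, Rpl39 -0.12, Rpl3l -0.14 and Rps16 -0.25. Array weights took Eef2k, Nop58 and Myc past the threshold (limma adjusted p = 0.0341, 0.0341 and 0.0465), while without _x_at or _s_at probe sets Eef2k was 0.16 (limma adjusted p = 0.720). Leaving out FVB array 2 took Nop58 and Rps6ka6 past it (limma adjusted p = 0.0170 and 0.0310). Low signal limits Rps16, Rpl37 and Rpl39l, which were at background in both groups.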
